A study of Homo sapiens and Mus musculus with 12 samples.

Results

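The LSD1 and GFI1 co-occupied sites of K562 cells are the places where a GFI1 ChIP-seq peak of control cells overlapped, by 1 bp or more, a peak of LSD1 in the same cells. K562 is a human line from a chronic myeloid leukaemia with erythroid and megakaryocytic features. Of the 498 GFI1 peaks of the control cells, 390 met this rule, and they are 78.3% of that list. Each of them overlapped exactly 1 of the 6548 LSD1 peaks, so 390 LSD1 peaks were matched and 6158 were not. The sites were thus chosen from the measured peaks, and the overlap itself and the peak heights behind it are given as a description with no test. The remaining 108 GFI1 peaks, without LSD1, served for comparison.

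LSD1 (gene KDM1A) is a histone demethylase that takes methyl groups from lysine 4 of histone H3 and works within complexes built on the CoREST scaffold. GFI1 and its relative GFI1B are zinc-finger repressors that recognise a DNA element with AATC at its centre. Their N-terminal SNAG domain binds LSD1, which brings the complex to repressed genes in blood progenitors. GATA1, the main transcription factor of the erythroid lineage, reads GATA elements and often binds close to GFI1B in such cells.

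The K562 cells expressed Cas9 in all groups, and carried either a non-targeting guide RNA (sg-NT, the control) or a guide against LSD1 (sg-LSD1, 1 edited line). GFI1 was immunoprecipitated from both and LSD1 from sg-NT cells only, so the peak lists hold no check that LSD1 was depleted. GFI1 and SPI1 were also immunoprecipitated from unedited THP1 cells, a human monocytic leukaemia line. Chromatin was fixed with DSG and formaldehyde, and each condition had 1 library. No value below therefore has a replicate check. The 5 lists held 12513 peaks in all, 160 of them in the GFI1 list of sg-LSD1 cells, 3461 in the GFI1 list and 1846 in the SPI1 list of THP1 cells. Peak lists carry no expression values, so the cell lines could not be checked against marker genes. For each peak the lists give a fold (pileup over local background at the summit) and the −log10 p of the peak caller. From these, the fragments piled up at a summit were worked out. The co-occupied GFI1 summits had a median of 12 (range 5 to 80), so the counts behind most values are small. Intervals in parentheses after a share are 95% Wilson intervals, and those after a difference of shares are Newcombe intervals. They cover counting error only.

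The sequences under single summits serve as examples, and they differ from site to site. Each is 81 bases of the plus strand of GRCh38 (hg38), centred on the GFI1 summit. Capitals mark the short GFI1 core AATC and the GATA core AGATAA, each on either strand, so that they also stand as their reverse complements. The first 5 are the strongest sites by −log10 p and the next 3 were chosen, after their values were seen, for several copies of the GFI1 core.
SPTAN1 (chr9:128558478-128558558): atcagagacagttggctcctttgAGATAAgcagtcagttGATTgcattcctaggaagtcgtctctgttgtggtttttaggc
IBA57 (chr1:228164630-228164710): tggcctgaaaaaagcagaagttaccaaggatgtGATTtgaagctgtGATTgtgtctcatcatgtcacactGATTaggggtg
PI16 (chr6:36954333-36954413): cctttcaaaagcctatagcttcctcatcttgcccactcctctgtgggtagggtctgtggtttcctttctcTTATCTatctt
TIGAR (chr12:4320900-4320980): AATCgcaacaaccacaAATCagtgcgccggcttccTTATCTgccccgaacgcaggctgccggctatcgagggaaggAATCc
CEBPE (chr14:23112843-23112923): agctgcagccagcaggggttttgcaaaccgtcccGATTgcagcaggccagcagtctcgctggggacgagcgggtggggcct
FNBP1 (chr9:130043745-130043825): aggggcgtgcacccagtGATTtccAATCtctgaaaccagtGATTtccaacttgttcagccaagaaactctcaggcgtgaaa
CXADR (chr21:17454337-17454417): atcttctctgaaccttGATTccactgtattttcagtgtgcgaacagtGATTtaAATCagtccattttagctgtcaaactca
ACVR2A (chr2:147844799-147844879): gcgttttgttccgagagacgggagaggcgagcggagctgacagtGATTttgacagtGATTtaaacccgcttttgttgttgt
The window of SPTAN1 joined a GATA core to a GFI1 core, and that of IBA57 held 3 copies of AATC. PI16 had a GATA core near the edge and 0 copies of AATC, whereas TIGAR had both. FNBP1 and ACVR2A each held 2 copies of the longer core AATCAC on the minus strand.

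The next windows show a related word and a pair of sites that share sequence. CHST6 and PGLYRP4 held the word TAAGCAC, printed here in lower case. AGRP is shown as a site with a GFI1 peak under both guides. MLYCD and TTLL9, on different chromosomes, share a stretch of at least 20 bases around a GATA core.
CHST6 (chr16:75509570-75509650): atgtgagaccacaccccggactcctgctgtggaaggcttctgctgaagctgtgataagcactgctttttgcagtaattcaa
PGLYRP4 (chr1:153343896-153343976): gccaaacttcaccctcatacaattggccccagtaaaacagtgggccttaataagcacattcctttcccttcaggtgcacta
AGRP (chr16:67489217-67489297): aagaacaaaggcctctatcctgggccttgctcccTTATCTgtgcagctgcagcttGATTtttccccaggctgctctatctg
MLYCD (chr16:83888896-83888976): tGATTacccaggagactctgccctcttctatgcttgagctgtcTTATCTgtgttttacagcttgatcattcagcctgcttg
TTLL9 (chr20:31918128-31918208): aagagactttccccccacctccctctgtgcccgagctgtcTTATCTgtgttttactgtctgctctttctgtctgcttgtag
The 2 closest neighbours among all sites lay 73519 and 77065 bp from the nearest transcript start of CD164, which encodes a sialomucin of blood progenitors, within the noncoding gene CCDC162P, and each held a GATA core.
CD164, weaker site (chr6:109304634-109304714): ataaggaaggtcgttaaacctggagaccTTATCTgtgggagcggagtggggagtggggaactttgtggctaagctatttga
CD164, stronger site (chr6:109308180-109308260): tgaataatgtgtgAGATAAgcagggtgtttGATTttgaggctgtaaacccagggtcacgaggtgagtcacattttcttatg

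Peak heights at the sites ranged widely. GFI1 had a median fold of 7.58 (quartiles 6.20 to 10.3, range 3.75 to 55.8), and LSD1 one of 12 (range 3.88 to 54.0). The LSD1 fold was higher than the GFI1 fold at 338 of the 390 sites (86.7%, 82.9 to 89.7), and the median ratio of LSD1 fold to GFI1 fold was 1.51. These folds come from different antibodies and from libraries whose read totals are not at hand. They therefore do not compare the occupancy of the 2 proteins. LSD1 peaks were also wider, with a median of 546 bp against 337.5 bp, and 253 GFI1 peaks (64.9%) lay wholly inside the LSD1 peak. Sites with a high GFI1 fold tended to have a high LSD1 fold. Spearman's rho between the 2 folds was 0.51 over the 390 sites, all from 1 library for each protein.

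**Figure D1:**
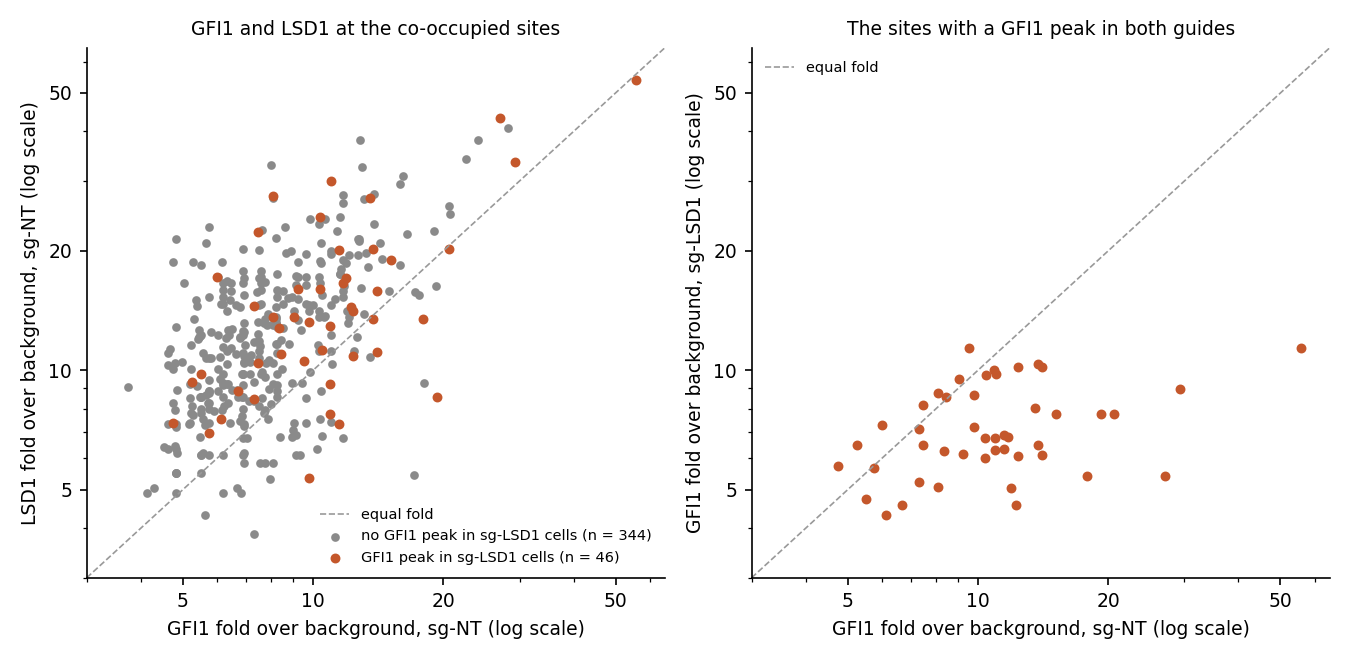
Left, each point is 1 of the 390 co-occupied sites, with its GFI1 fold on the x axis and its LSD1 fold on the y axis, both in sg-NT cells and on log scales, and the dashed line marks equal folds. Most points (338) lie above the line, and the 46 sites in orange also overlapped a peak of the sg-LSD1 GFI1 list. Right, the GFI1 folds of these 46 sites in sg-NT and sg-LSD1 cells, where 38 points lie below the line of equal fold.

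Strength set the co-occupied sites apart in both lists. Among the strongest 100 GFI1 peaks by −log10 p, 97 were co-occupied, and among the weakest 100, 51. The strongest GFI1 peak without LSD1 ranked 62nd, with a fold of 11.5. Seen from the LSD1 list, 48 of its strongest 100 peaks and 166 of its strongest 500 (33.2%, 29.2 to 37.4) were co-occupied, against 154 of the 5548 past rank 1000 (2.78%). GFI1 peaks without LSD1 had a median fold of 5.51, and LSD1 peaks without GFI1 one of 6.82. At the edge of the rule, the 3 smallest overlaps were 16 bp at HNRNPR (GFI1 fold 7.32, LSD1 fold 3.88), 56 bp at TEX14 (7.75 and 5.84) and 129 bp at KMT2E (5.75 and 6.93). Just outside it, gaps of 30 bp at SKIDA1 (GFI1 fold 4.13, nearest LSD1 fold 5.52), 65 bp at NANOS3 (6.34 and 16.7) and 318 bp at RANBP9 (5.41 and 6.08) kept 3 peaks out.

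The 20 strongest sites lay in genes of varied function or had such a gene as the nearest one. Distances are to the nearest protein-coding transcript start, which may be an internal one. The first was in intron 1 of SPTAN1, the gene of non-erythroid alpha spectrin, 5186 bp from a transcript start, where GFI1 had 80 fragments and a fold of 55.8 and LSD1 a fold of 54.0. It stood apart from all others, since the next site, 1134 bp from the start of IBA57 (a factor of mitochondrial iron-sulfur cluster assembly), had a GFI1 fold of 29.3 and 43 fragments. PI16 (a peptidase inhibitor) had GFI1 and LSD1 folds of 27.1 and 43.2, with the summit 365 bp from a transcript start. At TIGAR, which encodes a phosphatase that restrains glycolysis, the folds were 28.1 and 40.9, 273 bp from the start. CEBPE, a C/EBP factor of late granulocyte differentiation, had its site 6372 bp from the start with folds of 24.1 and 38. CRY2, a repressor of the circadian clock, had folds of 22.6 and 34.0 at a site 20386 bp away.

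The balance between the folds of LSD1 and GFI1 varied among the other strong sites. CHST6 (a sulfotransferase) had folds of 19 for GFI1 and 22.5 for LSD1, CLEC16A 20.7 and 25.9 in its intron 19, and CYTH1, which activates small ARF GTPases, 16.1 and 31.0. ARCN1 (a coatomer subunit), MYLIP (an E3 ligase for the LDL receptor), KCNRG, ZNRF2 and FBXO21 had GFI1 folds between 17.2 and 20.7, with LSD1 folds between 13.5 and 20.2. The lowest ratios of LSD1 to GFI1 fold were 0.320 at the site nearest to TPTE, 0.445 at CXADR, the gene of the coxsackievirus and adenovirus receptor, and 0.514 at FNBP1. The highest were 4.45 at TMPRSS9, 4.12 at ATP2A2 (a calcium pump of the endoplasmic reticulum) and 3.98 at the weaker CD164 site. The site nearest to TPTE needs care, since its GFI1 peak spanned 5928 bp on the short arm of chromosome 21, 1530711 bp from the gene's start, in a region where near-identical copies can share reads. NR1H2 (folds 20.8 and 24.8) and BCL7B (16.5 and 22.1) completed this set together with CROCC (15.0 and 15.9). Their summit windows held 20-base words with 5394, 182826 and 19 copies in the genome, so reads there may also be shared with other places.

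The GFI1 and LSD1 summits lay close together. Their distance had a median of 45.5 bp (95% interval of the median 40 to 51, quartiles 17 to 91), and it was at most 50 bp at 211 sites (54.1%, 49.1 to 59.0), at most 100 bp at 305 (78.2%) and at most 200 bp at 354 (90.8%). The summits were closest at the strong sites, with a median of 33 bp (26 to 40) where the GFI1 −log10 p was at least 12 (203 sites). The median was 66 bp at the 131 sites from 8 to below 12 and 70 bp at the 56 sites below 8. The fragments over a summit go with its −log10 p, and their part in this difference was not tested. The widest spacings, at sites singled out after their values were seen, were 1406 bp in intron 11 of CDH23 (a cadherin), 847 bp at the promoter of SMAD3, 569 bp at HNRNPR and 476 bp at SMCO1.

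The GFI1 core was more frequent under the GFI1 summits than around them. In 50 bp at the summit, searched on both strands, AATCAC was present at 44 of the 390 sites (11.3%, 8.51 to 14.8). In windows of the same length 2000 bp to either side it was in 3.59% (2.5 to 5.14, 28 of 780 windows), a difference of 7.69 percentage points (4.52 to 11.4). It was in 2.16% of the LSD1 peaks without GFI1 (difference 9.12 points, 6.32 to 12.7) and in 1.95% of the windows of this length in the middle of 35116 RefSeq promoters of GRCh38. GFI1 peaks without LSD1 held it in 4.63% (5 of 108), which is 6.65 points lower than the co-occupied sites (0.268 to 11.1). This last difference was not seen at equal peak strength, except among the strongest peaks, where its interval was wide. Among GFI1 peaks of −log10 p 8 to below 12 the shares were 6.87% and 7.69%, and below 8 they were 1.79% and 1.89%. At 12 or above they were 16.7% and 6.25% (1 of 16), with a difference of 10.5 points (−12 to 18.2). The short core AATC was in 49.2% of the co-occupied windows (44.3 to 54.2), in 26.4% of the LSD1 peaks without GFI1 and in 28.3% of the windows 2000 bp away.

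The GATA core was the other frequent element, and it ranked first among all 6-base words set against the surroundings. AGATAA was in 61 windows of 50 bp (15.6%, 12.4 to 19.6) against 2.56% 2000 bp away (difference 13.1 points, 9.54 to 17.1), 7.39% at LSD1 peaks without GFI1 and 1.68% in RefSeq promoters. GFI1 peaks without LSD1 held it in 7.41%, 8.23 points lower (0.930 to 13.6), and within each range of strength the interval of the difference included 0. In 200 bp the share at the co-occupied sites was 44.4% (39.5 to 49.3), against 23.1% at GFI1 peaks without LSD1, 23.8% at LSD1 peaks without GFI1 and 10.6% 2000 bp away. The pattern that CTG followed after 8 bases by GATAA makes, known as the joint element of TAL1 and GATA1, was in 7.44% of the 200-bp windows against 3.30% at LSD1 peaks without GFI1 and 1.03% 2000 bp away. It overlaps the GATA core where GATAA follows an A.

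In 50 bp at the GFI1 summit, GFI1 and GATA cores behaved differently with peak strength. AATCAC was in 1 of 56 windows of sites with a GFI1 −log10 p below 8 (1.79%, 0.316 to 9.45), in 9 of 131 from 8 to below 12 (6.87%, 3.66 to 12.5) and in 34 of 203 at 12 or above (16.7%, 12.2 to 22.5). AATC went from 35.7% through 41.2% to 58.1% over the same groups. AGATAA showed no such order, with 14.3%, 18.3% and 14.3%, and its intervals overlapped. Sites with AATCAC had a median −log10 p of 16.5 against 11.8 without it, and sites with AGATAA one of 11.6 against 12.3. Weak summits rest on fewer fragments, and the part of summit placement in these differences was not tested.

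**Figure D2:**
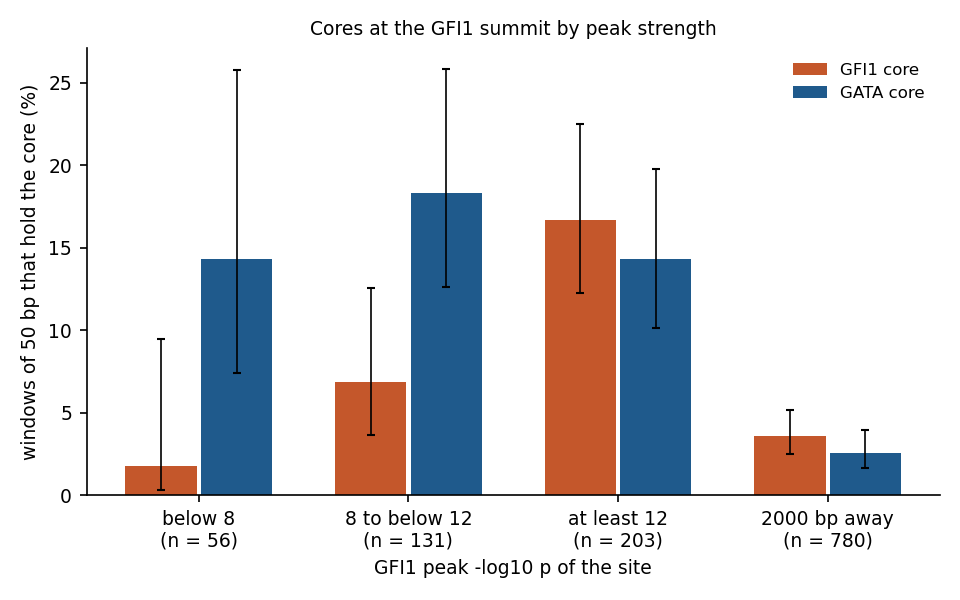
Share of 50-bp windows at the GFI1 summit that hold the GFI1 core AATCAC (orange) or the GATA core AGATAA (blue), in percent, for co-occupied sites grouped by the −log10 p of the GFI1 peak and for windows 2000 bp away. Bars are shares and error bars 95% Wilson intervals. The GFI1 core goes from 1.79% to 16.7% with strength, while the GATA core stays between 14.3% and 18.3%, and both are low 2000 bp away.

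The cores were also placed differently around the summits. In bins of 50 bp, AATCAC had 0.100 and 0.105 copies per site in the 2 bins that flank the GFI1 summit and 0.0462 and 0.0487 in the next bins out. Copies of the GATA core fell off over a wider stretch, from 0.156 and 0.154 beside the summit to 0.115 and 0.136 in the next bins. At the 97 sites with AATCAC within 100 bp of the GFI1 summit, its nearest copy lay a median of 29.5 bp away (18.5 to 37.5). From the LSD1 summit the median was 37 bp at 98 sites (26.5 to 49.5). Of the 97, the GFI1 summit was nearer to this copy at 66 and the LSD1 summit at 30, a count that favours GFI1, because the copy nearest to its summit was taken.

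At the LSD1 summits of the same sites, AATCAC was in 7.44% of the 50-bp windows, 3.85 points below the GFI1 summits (interval of the difference −0.266 to 8.01), AATC in 45.6% and AGATAA in 13.6%. For these 3 cores the intervals of the difference between the summits included 0. The RUNX core TGTGGT was in 10.3% of the LSD1 windows and 5.90% of the GFI1 windows, 4.36 points lower at the GFI1 summit (−8.28 to −0.518). Over 200 bp the 2 summits had 27.4% and 25.9%. Many windows of the 2 summits overlap, so these are not independent sets. The other cores searched were rare in 50 bp at the GFI1 summit. The core TGAGTCA of AP-1 and NFE2 was in 3.33% against 0.769% of the windows 2000 bp away, the E-box CAGCTG in 5.38% against 1.92%, the ETS core GGAAGT in 3.59% against 2.82%, the KLF core CACACCC in 1.28% against 1.03% and the SPI1 core in 0.513% against 0.256%. The E-box CAGATG was in 4.36%, and in 8.07% of the LSD1 peaks without GFI1.

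Both cores together were uncommon within 50 bp, with AATCAC and AGATAA at 6 sites. At 291 sites (74.6%) neither was found, against 90.6% of the LSD1 peaks without GFI1. Within 200 bp both were present at 41 sites (10.5%, 7.84 to 14), against 2.78% of the GFI1 peaks without LSD1 and 2.37% of the LSD1 peaks without GFI1, and the nearest copies of the 2 cores were a median of 52 bp apart (range 4 to 128). Presence of AATCAC did not go along with that of AGATAA. The GATA core was in 43.6% of the 200-bp windows with AATCAC and in 44.6% of those without it.

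A count of all 6-base words led back to both elements. Among 6-base words in the 50-bp windows, the ranks after AGATAA were held by CTTATC (12.1% against 0.769% of the windows 2000 bp away), AAATCA (13.6% against 2.56%) and AATCAC, the first overlapping the GATA core and the others the GFI1 core. An A preceded the core at 60.8% of the 97 nearest copies of AATCAC, and the 7-base word AAATCAC was in 8.72% of the windows against 1.41%. AAATCA was also in 13% of the GFI1 peaks without LSD1 and in 2.87% of the LSD1 peaks without GFI1. Among 8-base words, TAAGCACA led to a related word, AAGCAC, which was then counted. The word was picked from these same windows, so its excess over the windows 2000 bp away partly follows from that choice and is only a description. AAGCAC was in 21 windows (5.38%, 3.55 to 8.09) and in 0 of the 108 GFI1 peaks without LSD1. For these 108 the Wilson interval allows a share of up to 3.43%. AAGCAC was in 2.13% of the LSD1 peaks without GFI1 and in 1.92% of the windows 2000 bp away. Preceded by T it was in 13 windows (3.33%) against 0.406% and 0.256% in the latter 2 sets. The 13 sites were named after CHST6, PGLYRP4, TRAPPC8, PPCDC, ITPR2, DGKZ, TMEM178A, TRIB1, NXF3, KCNG3, ATP11B, ST3GAL2 and ZNF385D, and were chosen after their values were seen. At PGLYRP4, PPCDC, DGKZ, NXF3 and ATP11B the summit window held a 20-base word with 79 to 706 copies in the genome. All of these but DGKZ fell into the same group of 26 sites that share sequence, so they are not independent examples of the word. At least 1 of AATC and AAGCAC and the short GATA core GATAA was in 268 of the 390 windows (68.7%), against 44.4% of the GFI1 peaks without LSD1 and 33.5% of the windows 2000 bp away.

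Because co-occupied sites have strong LSD1 peaks, LSD1 peaks with and without GFI1 were also compared within ranges of LSD1 rank, with windows at the LSD1 summit. Among the strongest 500 LSD1 peaks the median folds were 17.0 with and 15.7 without GFI1. They were 11.1 and 10.6 from rank 501 to 1500 and 7.55 and 6.33 past it, so strength was not fully matched within the ranges. Among the strongest 500, AATC was in 46.4% of 50-bp windows with GFI1 and 22.2% without (difference 24.2 points, 15.4 to 32.9), and AGATAA in 200 bp in 56.0% and 24.3% (31.8 points, 22.7 to 40.3). The GFI1 core AATCAC was in 5.42% and 2.10%, with an interval of the difference that included 0. From rank 501 to 1500 AATCAC was in 10.6% and 4.13% (6.45 points, 1.64 to 13.9), and past rank 1500 in 7.5% and 1.81% (5.69 points, 2.17 to 11.8). For the GATA core the window mattered. In 200 bp the shares were 46.2% and 30.8% from rank 501 to 1500 (15.4 points, 5.57 to 25.3) and 33.3% and 22.5% past it (10.9 points, 2.98 to 19.8). In 50 bp AGATAA was in 17.5% with and 9.58% without GFI1 among the strongest 500 (7.89 points, 1.69 to 14.9), but in 11.5% and 11.2% from rank 501 to 1500 (0.378 points, −4.93 to 8.17) and in 10.0% and 6.55% past it (3.45 points, −0.803 to 10.1). The higher share of the GATA core in 50 bp was thus not seen beyond counting error in 2 of the 3 ranges.

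The sites mostly lay away from promoters. Of the 390 GFI1 summits, 173 (44.4%) were in introns, 164 (42.1%) outside protein-coding genes, 47 (12.1%, 9.18 to 15.7) within 1000 bp of a protein-coding transcript start and 6 (1.54%) in exons. LSD1 peaks without GFI1 were at promoters in 26%, which is a difference, co-occupied minus other, of −14 points (−17.1 to −10.2), while GFI1 peaks without LSD1 had 12% there. Within the strongest 500 LSD1 peaks the promoter shares were 9.04% with and 29.3% without GFI1 (difference −20.3 points, −26.5 to −13.2). They were 13.5% and 21.0% from rank 501 to 1500, with an interval that included 0 (−13.5 to 0.752), and 15.0% and 26.7% past it (−11.7 points, −17.2 to −4.16). The median distance to the nearest start was 16122.5 bp, against 8348 bp for LSD1 peaks without GFI1. The exon sites, named after their values were seen, were in RPP25 (GFI1 fold 12.4, LSD1 fold 14.1), DESI1 (11.7 and 27.6), EPN1 (10.4 and 16.1), MORN3 (8.78 and 11.6), USP20 (7.44 and 15.8) and FAIM2 (7.46 and 13.2). AGATAA was in 6.38% of the 50-bp windows at promoters (3 of 47), 12.7% in introns and 21.3% outside genes, whereas AATCAC was at 10.6%, 11% and 11.6%.

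The site in intron 1 of ARCN1 counted as a promoter through the start of its neighbour IFT46, 467 bp away. Besides it and PI16, TIGAR, FNBP1 and FBXO21, the promoter sites included several regulators, named here after their values were seen. ACVR2A, an activin receptor, had folds of 13.6 for GFI1 and 10.8 for LSD1 with the summit 190 bp from the start. ID2 (8.27 and 9.82) and ID3 (8.24 and 8.59), inhibitors of basic helix-loop-helix factors, had theirs 551 and 339 bp from the start. The transcription factor genes SMAD3 (8.07 and 10.4), STAT6 (7.55 and 5.84) and BHLHE40 (6.10 and 9.51) and the kinase gene STK11 (6.24 and 8.15) were among the weaker ones. ERMAP, a red cell membrane protein that carries a blood group, and FLVCR1, a heme exporter, had GFI1 folds of 6.36 and 6.46.

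Sites seldom came in groups. When summits at most 50 kb apart were chained, 22 sites (5.64%, 3.75 to 8.39) formed 11 pairs, and no chain had 3 sites. The closest pair, 3546 bp apart, was the one near CD164 shown above, with GFI1 folds of 10.4 and 5.77 and LSD1 folds of 21.0 and 22.9. The next pairs were near OR2V1 (4650 bp apart, GFI1 folds 11.7 and 11), an olfactory receptor gene, within SMAD3 (7025 bp, 8.07 and 5.51), near PPIAL4F (8690 bp) and near CBFA2T3, a corepressor of the ETO family (11708 bp, 11.7 and 5.67). The OR2V1 windows share a stretch of over 20 bases with each other, and PPIAL4F lies among near-identical copies, so reads at both pairs may be split or shared. Another pair lay within TEX14. The remaining pairs were named after MYLIP, BHLHE40, ZNF77 and TLE6, TTLL9 and PDRG1, and BMP2K. The sites of MYLIP, BHLHE40 and BMP2K lay outside these genes, which only have the nearest start. Further LSD1 peaks were not more frequent around the sites. A further LSD1 summit lay within 10 kb of 27.2% of the sites and of 29.8% of the LSD1 peaks without GFI1, and within 50 kb of 53.6% and 59.3% (difference −5.70 points, −10.8 to −0.656). By chromosome, 39 sites were on chromosome 7 (10.0%, against 5.91% of the LSD1 peaks without GFI1) and 21 on chromosome 19 (5.38%, against 11.8%).

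A total of 349 of 20033 protein-coding genes (1.74%) had a co-occupied summit within the gene or 10 kb of it. For the LSD1 peaks without GFI1 the share was 23.3%, but these number 6158 against 390 sites. The 2 shares therefore do not compare how often the sets lie near genes. Named by the gene that holds the summit or by the nearest start, the sites fell to 367 genes, of which 22 named more than 1 site. UBE2H, a ubiquitin-conjugating enzyme, named 3, with GFI1 folds of 7.63, 7.19 and 6.64. PRDM1, FLT1, CUBN, NLK, ZNF608 and NR2F2 were among those with 2.

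Of 33 blood transcription factor genes, 2 had a co-occupied site within 10 kb (6.06%, 1.68 to 19.6), against 1.74% of all protein-coding genes. An LSD1 peak without GFI1 was at 18 of them (54.5%), against 23.3% of all protein-coding genes. The 2 with a site were CEBPE, described above, and ZFPM1, the FOG1 cofactor of GATA1, with folds of 6.89 for GFI1 and 16.6 for LSD1 in its intron 3. GFI1, GFI1B and KDM1A themselves had 0 sites within 10 kb, while GFI1B had 6 LSD1 peaks without GFI1 and KDM1A 1. The only site named by GFI1B, chosen after its values were seen, was past the end of the gene at chr9:133004183-133004464, 17679 bp from the nearest of its transcript starts, which is an internal one, with folds of 7.58 and 16.6 and a copy of AATCAC at the summit. Of the 14 LSD1-CoREST genes, 1 had a site, GSE1 (6.04 and 17.2). The list of 27 globin, heme and red cell membrane genes had 1, at ANK1 (ankyrin 1), the last of all 390 sites by −log10 p, with 5 fragments and a fold of 4.13. Of 20 genes of cytokine receptor signalling 2 had a site, CISH (6.89 and 8.59), a SOCS-family inhibitor, and PTPN6 (5.51 and 7.98), the phosphatase SHP-1. The CISH site lay within 1000 bp upstream of CISH itself and at the promoter of the neighbour MAPKAPK3. The PTPN6 site lay at the promoter of C12orf57. The 17 cell cycle and survival genes had 2, E2F1 (10.3 and 14.1) and BCL2L1 (5.77 and 6.12), the 15 granule and monocyte genes 1, FCGR1A (7.93 and 8.98), an Fc receptor gene with near-identical copies, and the 15 megakaryocyte and platelet genes 0. None of these list sites had a counterpart in the sg-LSD1 list, where 46 of all 390 sites (11.8%) had one. The list sites are too few to be set apart from that share. The share with a site was 7.14% (1.27 to 31.5) for LSD1-CoREST genes and 3.70% (0.657 to 18.3) for globin, heme and red cell membrane genes. It was 10.0% (2.79 to 30.1) for cytokine receptor signalling, 11.8% (3.29 to 34.3) for cell cycle and survival and 6.67% (1.19 to 29.8) for granule and monocyte genes. Over all protein-coding genes it was 1.74%. The lists were chosen with earlier results of these data known, and their shares are counts over few genes, with no test.

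With the guide against LSD1, 46 of the 390 sites still overlapped a peak of GFI1 (11.8%, 8.96 to 15.4), while the share was 10.2% for the whole list of 498. GFI1 peaks without LSD1 had a counterpart in 4.63% (5 of 108), 7.17 points lower (0.752 to 11.6), and they were the weaker peaks. Within the co-occupied sites the share went from 2 of 56 at a −log10 p below 8 through 7 of 131 to 37 of 203 (18.2%, 13.5 to 24.1) at 12 or above. At the 46 sites the fold had a median of 10.7 in sg-NT and 6.77 in sg-LSD1 cells and was lower in sg-LSD1 cells at 38 (82.6%, 69.3 to 90.9). The median ratio was 0.695 (range 0.200 to 1.23). The folds come from 2 libraries whose read totals are not at hand, and the sites were chosen as peaks in the first of them, so the direction is a description. The summits of the 2 peaks lay a median of 41 bp apart (16.25 to 77.25, quartiles). The order of the folds was kept only in part, with a Spearman's rho of 0.30 over the 46 sites.

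The 10 strongest of these sites showed how uneven the remaining peaks were. At SPTAN1 the GFI1 fold was 55.8 in sg-NT and 11.4 in sg-LSD1 cells, at IBA57 29.3 and 8.99, and at PI16 27.1 and 5.43. KCNRG (20.7 and 7.75), CXADR (19.3 and 7.76), ZNRF2 (17.9 and 5.41), NR2F2, an orphan nuclear receptor (15.2 and 7.76), and KCTD6 (14 and 6.11) had likewise lower folds in sg-LSD1 cells. By contrast AGRP, the gene of a neuropeptide, had 14 and 10.2, and NBPF1, a gene with near-identical copies and a raised local background of 2.57, had 10.9 and 10.0. At NOS3, the endothelial nitric oxide synthase, METTL9 and MLYCD, picked out after their values were seen, the fold was higher in sg-LSD1 cells, at 9.52 and 11.4, 4.76 and 5.72, and 5.99 and 7.28. TIGAR, CEBPE and CRY2, next in rank to PI16, had no peak there. Sites with AATCAC in 50 bp had a counterpart more often, in 10 of 44 (22.7%) against 36 of 346 (10.4%), a difference of 12.3 points (1.78 to 26.9), but they were also the stronger peaks (median −log10 p 16.5 and 11.8). For AGATAA the shares were 14.8% and 11.2% (difference 3.51 points, −4.31 to 14.9). Of the 22 paired sites 0 had a counterpart, for which the Wilson interval allows a share of up to 14.9%. The share of the other sites was 12.5%, and the interval of the difference included 0 (−16.3 to 2.66).

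In THP1 cells, 67 of the 390 sites (17.2%, 13.8 to 21.2) overlapped a GFI1 peak, against 16.3% of all 498 GFI1 peaks of K562 cells. LSD1 peaks without GFI1 did so in 3.78%. Most of the shared sites (46 of 67) lay away from promoters, but the rate of sharing was highest at promoters. There, 21 of 47 (44.7%, 31.4 to 58.8) were shared, against 15 of 173 in introns (8.67%) and 29 of 164 outside genes (17.7%), differences of 36.0 points (21.8 to 50.5) and 27.0 points (12.2 to 42.0). GFI1 peaks without LSD1 were shared at 4 of 13 promoters (30.8%, 12.7 to 57.6), 6 of 41 introns (14.6%) and 4 of 54 places outside genes (7.41%), so a higher share at promoters was not particular to the co-occupied sites. LSD1 peaks without GFI1 were shared at 6.86% of promoters, 2.5% of introns and 2.74% outside genes. The highest THP1 fold at a co-occupied site was 46.2, at the promoter of TMEM237, a protein of the primary cilium, where the K562 fold was 8.40 and 2 copies of AATCAC lay at the summit. IMPA2 (34.4 in THP1 and 9.39 in K562), TMEM243 (26.9 and 7.5), ACVR2A (22.3 and 13.6) and ID3 (22.2 and 8.24) were other promoter sites with a higher fold in THP1 cells, and like TMEM237 were chosen after their values were seen. C1QTNF8, an intron site, had folds of 26.3 in THP1 and 10.5 in K562 cells, whereas TIGAR had the lower fold in THP1 cells (22.2 and 28.1). C1QTNF8 was also among the 3 sites with the most copies of AATC in 200 bp, 6 each at TUBB8B, C1QTNF8 and SMCO1. Across the 67 sites the K562 and THP1 folds had a Spearman's rho of 0.13. The sites shared with THP1 cells had a counterpart in sg-LSD1 cells in 13 of 67 (19.4%), against 33 of 323 (10.2%), a difference of 9.19 points (0.609 to 20.6), with median −log10 p values of 13.9 and 11.6.

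SPI1, the ETS factor of monocytic cells, had a THP1 peak at 5 of the 390 sites (1.28%, 0.549 to 2.97), against 1.00% of all GFI1 peaks of K562 cells. They were named here after their values were seen and lay near IBA57 and in or at TECPR1, ST3GAL4, RHOQ and TMEM243, with SPI1 folds of 9.27, 7.83, 7.83, 7.41 and 11.4.

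Repeated sequence was scarcer at the sites than around them. A summit window with a 20-base word of at least 100 copies in the genome was found at 27 sites (6.92%, 4.80 to 9.89). The share was 24.2% for LSD1 peaks without GFI1 and 21.7% for the windows 2000 bp away. GFI1 peaks without LSD1 had 10.2% (11 of 108), a difference, co-occupied minus other, of −3.26 points (−10.7 to 2.04). Against these GFI1 peaks the lower share was thus not seen beyond counting error. Words of at least 2 copies were in 51.8% of the sites, 64.8% of these GFI1 peaks and 61.1% of the LSD1 peaks without GFI1. Some sites still shared sequence. When 200-bp windows with a common 20-base word were joined, 67 sites fell into 13 groups, the largest of 26, whereas the windows 2000 bp to either side gave 102 and 106 windows in groups of up to 87. The group of 26 held PGLYRP4, SIMC1, ANXA4, MLYCD and TTLL9 among others. Its summit windows held a word of at least 100 copies only at ZNF184 and ZNF764, but many came close to this limit. Words of 60 to 92 copies stood at PPCDC, ATP11B, PGLYRP4, NAF1, ANXA4, NXF3, TM7SF3, MLYCD, TTLL9 and CA13. The remaining windows of the group had 1 to 8 copies. Another group held both CROCC sites, NECAP2 and an NBPF1 site, in neighbouring near-identical regions of chromosome 1, and reads at these 4 sites may come from any of them. The local GFI1 background reached at least 2 at 8 sites against a median of 0.694. Of the 8, 4 (HIRA, SEPTIN5, TXNRD2 and DGCR8) lay close together on chromosome 22, and the others were named after NBPF1, AIF1L, FAM20B and RHCE. Their folds ran from 3.75 to 10.9.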

How the data were processed

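MACS2 peak lists of 5 ChIP-seq libraries were analysed, with 1 library per condition. Per the submitters' processing notes, the tools were Trim Galore 0.6.1, Bowtie2 2.5.4, Picard 3.1.0, MACS2 2.2.9.1, HOMER 5.1 and deepTools 3.5.5, with GRCh38. According to the methods, the authors called peaks per library at a p threshold of 1e-05 and removed ENCODE blacklist regions. Whether the input served as the MACS2 control is not given in the sources used here. The deposited fold is a ratio of pileup to local background. The p-value and q-value of each peak were deposited by the authors on a −log10 scale. The deposited score repeats the −log10 p and was not used. The other libraries of the series were not analysed here. Samples were grouped by their labels.

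No read totals were at hand. Fragments were solved from fold and −log10 p with a pseudocount of 1. Sites were counted at an overlap of at least 1 bp and checked with bedtools 2.31.1. Genes came from GENCODE release 44 and promoter windows from RefSeq. Cores were searched in 50 bp and 200 bp around summits and in windows 2000 bp to either side. The named sites were the 20 strongest by −log10 p, the 10 strongest with a peak in sg-LSD1 cells, chains of at least 3, sites at genes of the fixed lists, the 3 nearest to each side of the overlap rule, the 3 with most AATC and the 3 largest and smallest fold ratios, except where the text says otherwise. The members and lists were chosen with earlier results of these data known. Alternatives were stricter −log10 p and q, other overlaps, cores, windows and distances. Scripts were tested on simulated data and run with Python 3.11.15, numpy 2.4.6, scipy 1.17.1, numba 0.67.0, pysam 0.24.0, samtools 1.23.1 and matplotlib 3.10.9.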

Additional observations from a re-analysis of the deposited data

How the results depend on the processing

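Of 49 alternatives to 13 results, 34 moved the value by less than its counting interval (counts by less than 1.5 times). The co-occupied sites numbered 328 at a −log10 p of at least 8, 383 at a −log10 q of at least 2, 386 with overlap of at least 50% of the shorter peak and 354 with summits at most 200 bp apart. Most of the values that moved further came from wider or shorter searches. The share with the GFI1 core at the GFI1 summit, 11.3%, became 24.1% in 200 bp, 49.2% with AATC and 16.4% with AATCAC or AAGCAC. At the LSD1 summit 7.44% became 24.6% in 200 bp and 45.6% with AATC. The GATA share of 15.6% became 44.4% in 200 bp and 25.9% with GATAA. The distance of the GFI1 core from the GFI1 summit, 29.5 bp, was 16.5 bp with a search of 50 bp. The promoter share of 12.1% was 26.9% at 5000 bp and 26.4% with starts of all transcript types. The share with a GFI1 peak in THP1 cells, 17.2%, was 13.4% without promoter sites. Paired sites numbered 8 at 10 kb and 47 at 100 kb, and genes 224 with the summit in the gene and 779 at 50 kb. The alternatives with AAGCAC, without repeated words and without promoter sites were chosen after seeing the data. In all, 4 alternatives that leave out repeats were not run because the reference used here marks no repeats. No paired analysis was possible because each condition had 1 library. The GFI1 summits of the sites rest on a median of 12 fragments, and the part of depth in the list sizes was not tested.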
